A study of Mus musculus with 6 samples.

Results

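The genes described here are those of the unfolded protein response and of protein folding in the endoplasmic reticulum (ER). They are 32 genes, chosen by symbol from a list written with earlier results of these data known, out of 25509 gene rows in the count table. All 32 passed the filter on low counts, and each stood on 1 row. They were measured by RNA-seq in macrophages drawn into the mouse peritoneal cavity by thioglycollate, an irritant, collected on day 4, purified on a Percoll gradient and left to adhere for 2 h. The compared genotypes were Tg-ACE, which the labels call JWT (Tg-ACE), and WT, with 3 libraries each, all on the C57BL/6 strain. Ace encodes angiotensin-converting enzyme, a peptidase best known for making angiotensin II. The promoter and cell type that drive the transgene, and the age of the mice, were not stated in the sources read. The series' design text writes Tg-NKO where its title and labels write Tg-ACE, and the labels were followed. The labels do not say that the 3 libraries of a genotype came from separate mice, so p-values measure the spread between these libraries, which may be partly technical.

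Library totals lay between 24294244 and 28120393 counts, so that 3 counts, taken as the detection floor, equalled 0.107 to 0.123 CPM (counts scaled to a common library total). The sample descriptions carry an experiment code, whose meaning they do not give. The code Exp-156b marks replicates 2 and 3 of each genotype (4 libraries), and Exp-156 marks replicate 1 of each (2 libraries). Along the leading principal component (74.6% of the variance), positions were 26.2 to 34.2 in the Exp-156b libraries and -63.7 and -55.8 in the Exp-156 libraries. Xist, which is transcribed in female cells, had 327 to 454 CPM in Exp-156b and 0.527 (Tg-ACE) and 0.409 (WT) CPM in Exp-156. The code, the sex of the mice and anything else that differed between these sets of libraries cannot be told apart. Ace had 101, 25.6 and 31.8 CPM in Tg-ACE replicates 1 to 3, against 16.7, 7.6 and 11.6 CPM in WT replicates 1 to 3. It was higher in Tg-ACE under each code, by 1.95 on the log2 scale (SE 0.23, edgeR adjusted p 0.136). By exact permutation of the libraries (two-sided) p was 0.1, which is as low as 3 against 3 can reach.

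The ER folds secreted and membrane proteins with chaperones and disulfide isomerases, and when unfolded protein builds up, sensors in its membrane start the unfolded protein response. Perk (Eif2ak3) phosphorylates the translation factor eIF2, which slows protein synthesis while favouring translation of the transcription factor Atf4, whose targets handle amino acid supply, redox balance and cell death. Ire1 (Ern1) splices the Xbp1 messenger, and Atf6 is cut in the Golgi to free a transcription factor. Xbp1 and Atf6 raise chaperones and the machinery of ER-associated degradation (ERAD), which sends misfolded proteins to the proteasome. Kinases other than Perk, which respond to missing amino acids, haem or viral RNA, also act on eIF2, so the arm below eIF2 is shared with other stress responses. Macrophages are secretory cells and rely on this machinery for cytokines, enzymes and surface receptors. Gene-level counts do not show Xbp1 splicing, eIF2 phosphorylation, Atf6 cleavage or protein.

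RefSeq promoter windows on the GRCm38.p6 build, running from 250 bases before to 50 bases after the gene start, matched 28 of the 32 genes. Hyou1, Manf, Derl1 and Atf6 had no entry. Motifs were sought on both strands as fixed letters. CARE, an element that Atf4 binds with C/EBP partners, was sought as TGATGNAA and stood in 4 of the 28 windows, against 4.51% of 27025 genes. These 4 were Chac1, Asns, Trib3 and Herpud1. Between the experiment codes Chac1, Asns and Trib3 were higher in Exp-156b and Herpud1 was lower. In that comparison 56.2% of the 32 genes and 42.9% of all tested genes passed the test. The windows of the 4 are shown with the match in capitals. In Herpud1 the second match in capitals is ERSE-II. Bases are counted from 1 at the 5′ end, and the gene starts at base 251. The match covers bases 58 to 65 in Chac1 (chr2:119350992-119351291, plus strand), 228 to 235 in Asns (chr6:7693160-7693459, minus strand), 265 to 272 in Trib3 (chr2:152344011-152344310, minus strand) and 139 to 146 in Herpud1 (chr8:94386179-94386478, plus strand). It reads on the reverse strand in Chac1, Trib3 and Herpud1 and forward in Asns.
Chac1: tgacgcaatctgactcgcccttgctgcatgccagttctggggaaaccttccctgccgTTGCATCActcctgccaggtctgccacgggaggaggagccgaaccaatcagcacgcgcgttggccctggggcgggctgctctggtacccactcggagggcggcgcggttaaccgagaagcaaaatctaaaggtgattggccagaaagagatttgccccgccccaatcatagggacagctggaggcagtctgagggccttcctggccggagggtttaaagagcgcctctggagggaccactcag
Asns: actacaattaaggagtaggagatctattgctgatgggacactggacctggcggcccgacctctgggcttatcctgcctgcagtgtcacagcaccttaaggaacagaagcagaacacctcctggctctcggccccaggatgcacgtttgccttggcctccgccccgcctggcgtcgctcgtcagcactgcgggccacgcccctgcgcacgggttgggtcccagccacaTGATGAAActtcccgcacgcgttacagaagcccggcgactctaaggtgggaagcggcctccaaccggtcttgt
Trib3: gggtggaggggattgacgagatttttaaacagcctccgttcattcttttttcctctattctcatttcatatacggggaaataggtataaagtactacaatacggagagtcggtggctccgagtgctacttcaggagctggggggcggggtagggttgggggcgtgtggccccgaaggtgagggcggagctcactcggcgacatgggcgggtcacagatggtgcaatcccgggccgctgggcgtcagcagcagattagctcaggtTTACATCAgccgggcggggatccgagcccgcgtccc
Herpud1: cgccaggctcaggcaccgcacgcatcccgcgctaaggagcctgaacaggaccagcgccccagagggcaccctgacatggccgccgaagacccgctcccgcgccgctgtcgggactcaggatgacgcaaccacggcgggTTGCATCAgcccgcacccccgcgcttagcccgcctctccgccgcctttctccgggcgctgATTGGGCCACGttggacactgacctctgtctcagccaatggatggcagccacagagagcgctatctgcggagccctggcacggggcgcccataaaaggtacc

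ERSE, the ER stress response element that Atf6 and Xbp1 bind with NF-Y, was sought as the box CCAAT, then 9 bases of any kind, then the box CCACG. It stood in 9 of the 28 windows (Hspa5, Hsp90b1, Canx, Pdia6, Dnajc3, Creld2, Ero1lb, Syvn1 and Derl3), against 0.137% of genes. ERSE-II, sought as the box ATTGG, 1 base of any kind and the box CCACG, stood in Dnajb11 and Herpud1, against 0.0444% of genes, and does not overlap the CARE match in Herpud1. UPRE, an Xbp1 element sought as TGACGTGG, stood in 0 of the 28 windows and in 0.714% of genes. The windows of the main chaperones are shown to set their ERSE matches beside the CARE matches of the Atf4 targets. The capitals mark ERSE at bases 186 to 204 in Hspa5 (chr2:34771840-34772139, plus strand), and at bases 39 to 57 and, on the reverse strand, 144 to 162 in Hsp90b1 (chr10:86705395-86705694, minus strand). A match is a run of letters in this window and was not tested for binding.
Hspa5: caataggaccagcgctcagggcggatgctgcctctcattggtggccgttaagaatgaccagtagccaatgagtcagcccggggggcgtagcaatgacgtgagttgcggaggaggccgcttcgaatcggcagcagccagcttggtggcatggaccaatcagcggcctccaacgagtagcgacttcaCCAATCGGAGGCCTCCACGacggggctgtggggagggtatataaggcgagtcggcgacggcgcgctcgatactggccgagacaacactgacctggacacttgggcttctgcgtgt
Hsp90b1: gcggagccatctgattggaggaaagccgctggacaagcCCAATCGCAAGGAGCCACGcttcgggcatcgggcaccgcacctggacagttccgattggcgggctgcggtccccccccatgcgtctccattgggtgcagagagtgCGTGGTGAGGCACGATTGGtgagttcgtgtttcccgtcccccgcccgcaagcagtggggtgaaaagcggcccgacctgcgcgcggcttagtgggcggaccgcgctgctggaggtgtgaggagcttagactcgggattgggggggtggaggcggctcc

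**Figure D1:**
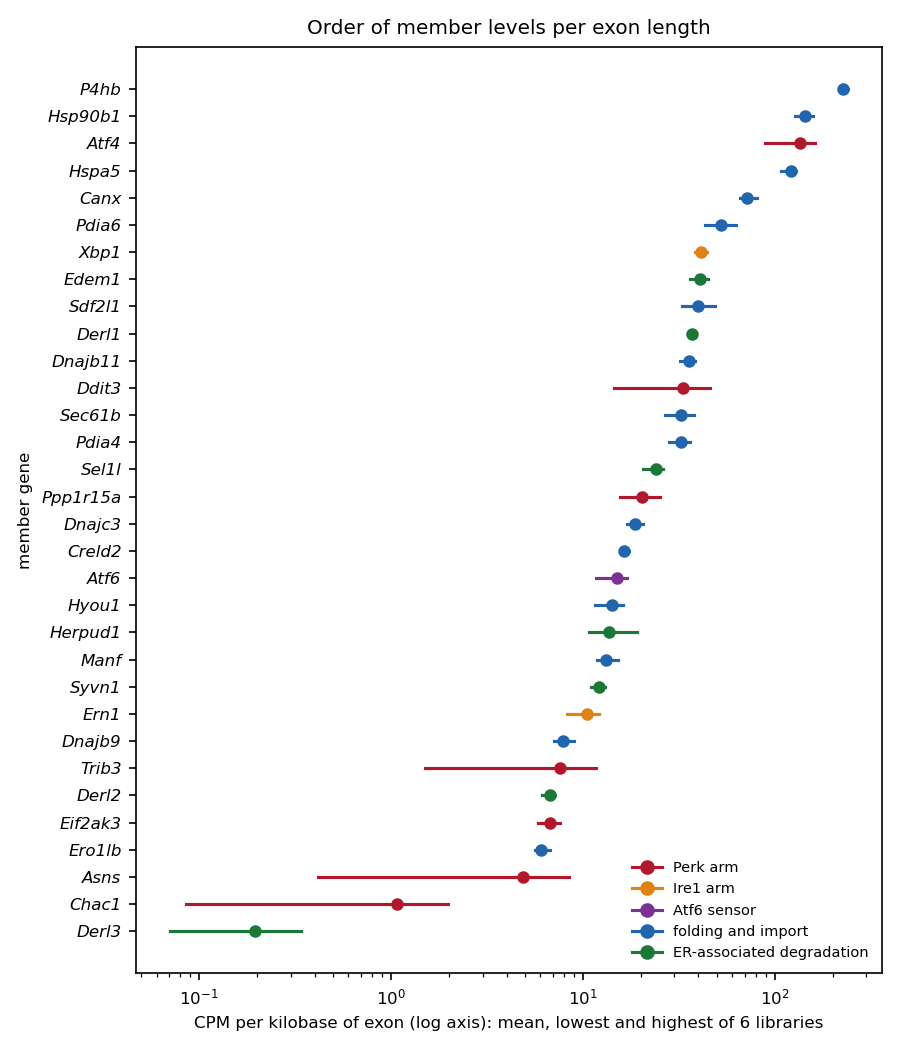
Level of each of the 32 genes per kilobase of exon, in CPM on a log axis, with the mean over the 6 libraries as a point and the lowest and highest library as a line. P4hb stands highest at 228 and Derl3 lowest at 0.195. The longest lines belong to Chac1, Asns and Trib3 of the Perk arm, and the line of Derl3 (0.0706 to 0.339) is longer than those of the other Perk arm genes.

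Per kilobase of exon, P4hb stood highest of the 32 genes. It encodes a protein disulfide isomerase and averaged 228 CPM per kilobase over the 6 libraries, with a range of 217 to 241. Hsp90b1, the ER form of Hsp90, averaged 144, Atf4 135 and Hspa5, the chaperone BiP, 122 CPM per kilobase, and the ranges of these 3 overlapped. Canx, the lectin chaperone calnexin, followed at 72 CPM per kilobase. The low end was held by Asns at 4.88, Chac1 at 1.07 and Derl3 at 0.195 CPM per kilobase. For 27 genes the range over libraries overlapped that of the next gene in the order, so most neighbours in the plot of levels per exon length do not differ beyond their spread. Derl3, an ERAD channel subunit, had 4, 7 and 15 counts in the Tg-ACE libraries and 10, 6 and 17 counts in the WT libraries, and its comparisons rest on those few counts.

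The first comparison asked whether the transgene went with a change in these genes. None of the 32 passed the test between Tg-ACE and WT, where 0.0156% of the 12827 tested genes did. The smallest adjusted p among them was 0.787, and 0 had an unadjusted p under 0.05, against 6.48% of tested genes (edgeR); DESeq2 and limma-voom also called 0. The Tg-ACE minus WT difference was above 0 for 14 genes and below 0 for 18, with a median of -0.005 on the log2 scale, against -0.005 over all tested genes. The 95% interval of the difference lay within 0.25 of 0 on the log2 scale for 22 genes and within 0.5 for 28. The 4 with wider intervals were Derl3, Chac1, Asns and Ppp1r15a.

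The ER chaperones were level between the genotypes within narrow limits. Hspa5 had 545, 457 and 529 CPM in Tg-ACE replicates 1 to 3, against 528, 518 and 524 CPM in WT replicates 1 to 3. The groups overlapped, and the difference was -0.04 on the log2 scale (SE 0.08, 95% interval -0.22 to 0.14). Among the 15 folding and import genes the bound farthest from 0 was 0.38, for Sdf2l1, a co-chaperone of BiP (difference 0.15, interval -0.07 to 0.38). Xbp1 averaged 133 ± 1.96 CPM in Tg-ACE and 135 ± 9.7 CPM in WT (SD, n = 3 each). Ern1, which encodes Ire1, averaged 83 ± 12.1 CPM in Tg-ACE and 88.6 ± 18.3 CPM in WT, with a difference of -0.08 (interval -0.23 to 0.07). Atf6 averaged 139 ± 13.8 CPM in Tg-ACE and 138 ± 26 CPM in WT. These SDs pool the experiment codes. In WT, Ern1 had 67.5 CPM in Exp-156 against 98.7 and 99.5 CPM in Exp-156b. With the code as a term of the model, none of Ern1, Atf6 and Xbp1 passed (adjusted p 0.838, 0.968 and 0.961, edgeR).

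Creld2, an ER protein with disulfide isomerase activity, was the gene whose libraries did not overlap between genotypes. It had 22.9, 22.6 and 23.7 CPM in Tg-ACE, against 22.1, 21.8 and 21.6 CPM in WT. All Tg-ACE libraries were higher, by 0.08 on the log2 scale (SE 0.07, adjusted p 0.847). Over all tested genes 4.91% did not overlap (2.38% higher and 2.53% lower in Tg-ACE), so 1 of 32 is near the background.

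The Perk arm held the 2 largest genotype differences among the 32 genes, neither of which passed the test. Chac1, which breaks down glutathione, had 0.141, 1.99 and 2.22 CPM in Tg-ACE replicates 1 to 3, against 0.205, 2.73 and 3.26 CPM in WT replicates 1 to 3. Tg-ACE was lower under each code, with a difference of -0.51 (SE 0.24, interval -1.07 to 0.05, adjusted p 0.787). Under Exp-156 the comparison rests on 4 counts (Tg-ACE) against 5 counts (WT), close to the floor of 3 counts. Asns, which makes asparagine, had 2.78, 18 and 23.2 CPM in Tg-ACE, against 1.15, 14 and 20.9 CPM in WT. Its difference was 0.43 (SE 0.23, interval -0.11 to 0.96), with 0.25 among Exp-156b libraries and 1.22 among Exp-156 libraries. The spread of these genes within each genotype followed the experiment code, as the plot of Perk arm CPM shows.

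**Figure D2:**
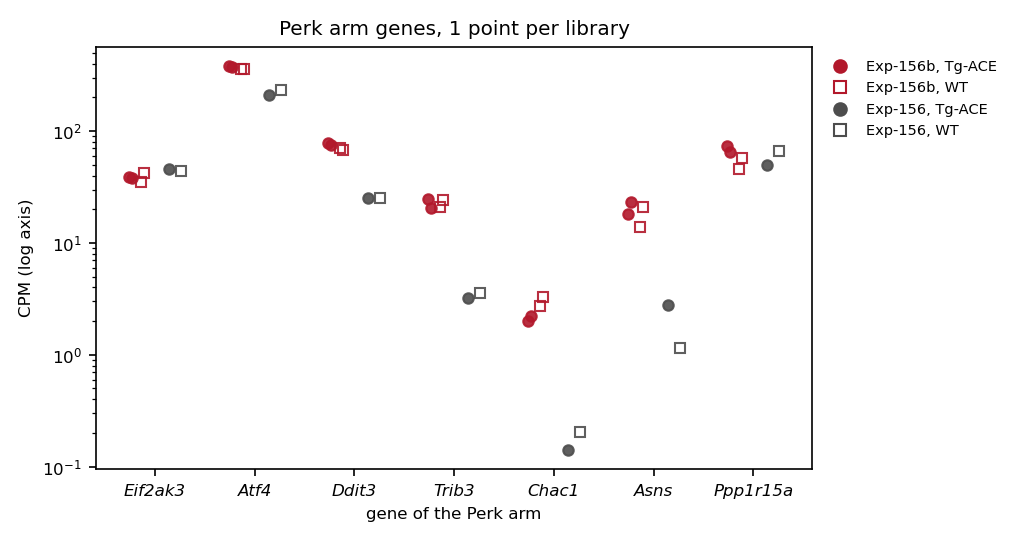
CPM of the 7 Perk arm genes on a log axis, 1 point per library, with Exp-156b in red and Exp-156 in grey, Tg-ACE as filled circles and WT as open squares. The Exp-156b points of Atf4, Ddit3, Trib3, Chac1 and Asns all lie above the Exp-156 points, while those of Ppp1r15a overlap (45.7 to 73.8 against 49.8 and 66.2 CPM).

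The second comparison set the experiment codes apart, with genotype as a term of the model. Atf4 and most of its targets among the 32 were higher in Exp-156b, up to 14.8-fold for Chac1. The main chaperones and Xbp1 differed little, and 6 folding genes and Herpud1 were lower. Of the 32 genes, 18 passed the test, 11 higher and 7 lower in Exp-156b. That is 56.2%, against 42.9% of all tested genes, of which 20% were higher and 22.9% lower. A log2 change of at least 1 was found for 4 of the 32 (Chac1, Asns, Trib3 and Ddit3, all higher), against 5.54% of tested genes higher and 6.91% lower by that much. The filter on low counts limits this background. Chac1 was kept although it was low in both Exp-156 libraries. Ccr3 was not kept, with 55.3 (Tg-ACE) and 146 (WT) CPM in Exp-156 and 0.0822 to 0.355 CPM in Exp-156b. The shares that were lower can therefore miss genes seen mainly in Exp-156. The median difference over the 32 was 0.00, as over all tested genes. In 11 genes every Exp-156b library was above both Exp-156 libraries and in 11 every one was below, against 59.8% of tested genes in either direction.

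Of these 18 calls, 8 held without each library in turn (Pdia6, Ern1, Ddit3, Chac1, Asns, Herpud1, Trib3 and Atf4), and all 18 kept their sign. Without WT replicate 1, and likewise without Tg-ACE replicate 1, fewer genes were called, in this set and over all tested genes. In either fit the share called in this set was near the share over all tested genes. Because these fits lose calls among all tested genes too, they do not show what the higher share in this set rests on. Whether that share exceeds the background beyond chance was not tested. Each of these fits leaves Exp-156 with 1 library, which is assumed to vary like the others.

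In the Perk arm 5 of 7 genes were higher in Exp-156b and 0 lower, with a median log2 difference of 1.54; that is 71.4% called, against 42.9% of all tested genes. Atf4 had 381, 377 (Tg-ACE), 356 and 358 (WT) CPM in Exp-156b, against 209 (Tg-ACE) and 235 (WT) CPM in Exp-156. All 4 Exp-156b libraries stood above both others, by 0.73 on the log2 scale (SE 0.08, adjusted p 4.3e-04). Atf4 is controlled mostly in translation, so its messenger level is a partial measure of its activity.

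Ddit3, the transcription factor CHOP, had 78.6, 75.6 (Tg-ACE), 70.4 and 67.2 (WT) CPM in Exp-156b, against 25.1 (Tg-ACE) and 25.1 (WT) CPM in Exp-156. The mean was 2.91-fold higher in Exp-156b, a log2 difference of 1.54 (SE 0.08, adjusted p 1.5e-05). Its exons share 68 bases with Mars, a tRNA synthetase gene on the opposite strand that was itself higher in Exp-156b (0.61 on the log2 scale), and whether the counting used strand was not stated in the sources read. Trib3, a pseudokinase that binds Atf4 and CHOP, had 24.9, 20.4 (Tg-ACE), 21 and 24 (WT) CPM in Exp-156b, against 3.2 (Tg-ACE) and 3.56 (WT) CPM in Exp-156. That was 6.68-fold, or 2.74 on the log2 scale (SE 0.14, adjusted p 1.8e-05), and the groups lay far apart.

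Asns had 18, 23.2 (Tg-ACE), 14 and 20.9 (WT) CPM in Exp-156b, against 2.78 (Tg-ACE) and 1.15 (WT) CPM in Exp-156. The log2 difference was 3.29 (SE 0.29, adjusted p 1.6e-04), and it was 3.92 without Tg-ACE replicate 1 and 2.88 without WT replicate 1, past the threshold in both cases. Chac1 had 50, 54 (Tg-ACE), 77 and 82 (WT) counts in Exp-156b, against 4 (Tg-ACE) and 5 (WT) counts in Exp-156. Its log2 difference was 3.85 (SE 0.34, adjusted p 1.5e-04), between 3.80 and 3.92 when single libraries were left out. Both Exp-156 libraries were close to the floor of 3 counts.

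The other Perk arm genes did not pass. Eif2ak3, which encodes Perk itself, averaged 38.6 ± 2.78 CPM in Exp-156b (SD, n = 4), against 45.6 (Tg-ACE) and 44.3 (WT) CPM in Exp-156. Every Exp-156b library was lower, with a difference of -0.22 (SE 0.08, adjusted p 0.066). Ppp1r15a, or Gadd34, which guides a phosphatase to eIF2 and so ends the arm's block on translation, had 73.8, 65.5 (Tg-ACE), 45.7 and 57.9 (WT) CPM in Exp-156b, against 49.8 (Tg-ACE) and 66.2 (WT) CPM in Exp-156. The groups overlapped, and the difference was 0.05 (SE 0.19, interval -0.38 to 0.48).

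**Figure D3:**
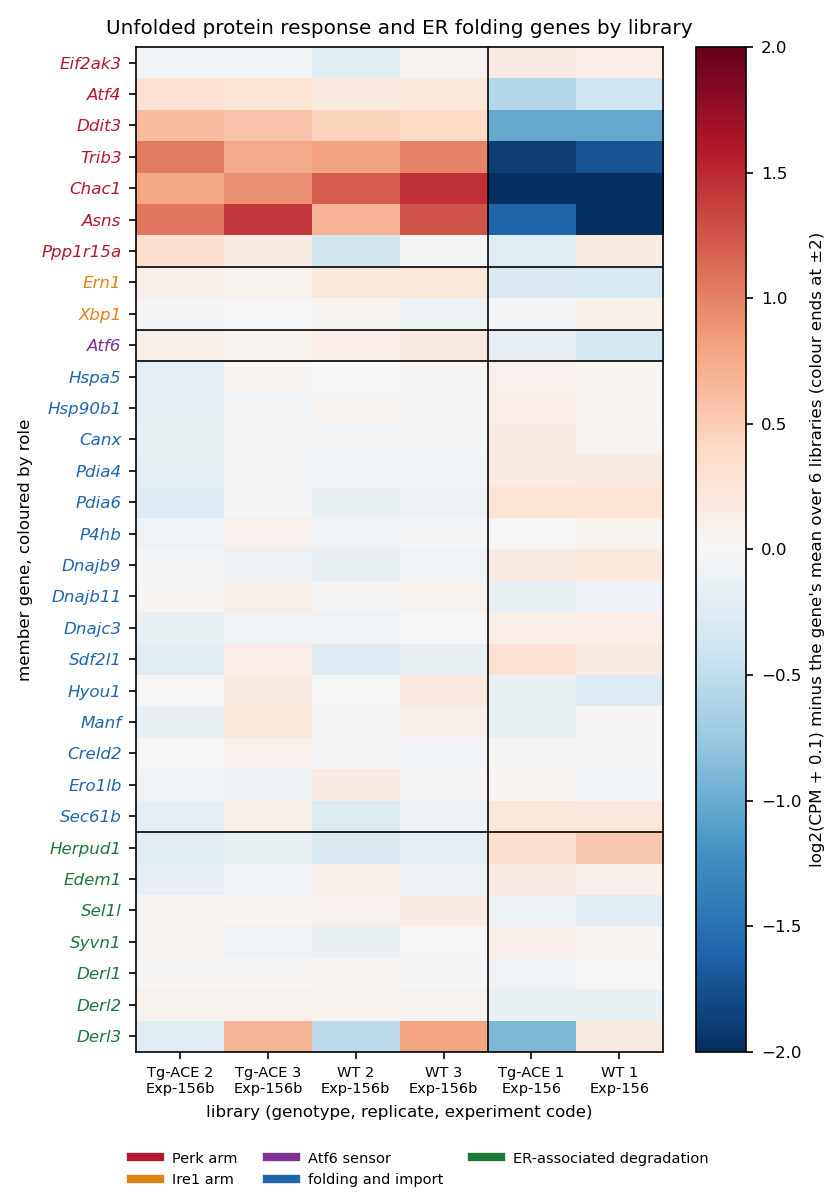
Each of the 32 genes (rows, by role) in each of the 6 libraries (columns, Exp-156b left of Exp-156), as log2(CPM + 0.1) minus the gene's mean over the libraries, with the colour ending at 2 either way. Atf4, Ddit3, Trib3, Chac1 and Asns are red in all 4 Exp-156b columns and blue in both Exp-156 columns, while most folding genes are pale.

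Both other sensors were higher in Exp-156b. Ern1 had 90.8, 89.2 (Tg-ACE), 98.7 and 99.5 (WT) CPM in Exp-156b, against 69 (Tg-ACE) and 67.5 (WT) CPM in Exp-156, a difference of 0.47 (SE 0.07, adjusted p 0.00153). Atf6 had a mean of 149.6 ± 5.07 CPM in Exp-156b (SD, n = 4), against 123 (Tg-ACE) and 108 (WT) CPM in Exp-156. Its difference of 0.37 (SE 0.08, adjusted p 0.00702) lost its call without WT replicate 1 (0.25, adjusted p 0.0744). Xbp1 averaged 132 ± 5.49 CPM in Exp-156b (SD, n = 4), against 132 (Tg-ACE) and 144 (WT) CPM in Exp-156, and did not pass (-0.06, SE 0.07, adjusted p 0.533).

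Downstream, genes assigned here to the Ire1 branch (9, with Ern1 and Xbp1) numbered 2 higher, 3 lower and 4 not called (55.6% called), with a median of -0.06 on the log2 scale. Those assigned to the Atf6 branch (13, with Atf6) numbered 4 higher, 4 lower and 5 not called (61.5% called), with a median of -0.08, against 42.9% of all tested genes called. The branches share targets, so each gene was placed in the branch best known for it. Neither branch list moved in 1 direction, whereas the Perk arm had 5 calls higher and 0 lower. That contrast depends on the placing of genes. Herpud1, which was lower (-0.65), was placed in the Atf6 branch, although its window matches CARE as those of Chac1, Asns and Trib3 do.

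Of the 15 folding and import genes, 2 were higher and 6 lower in Exp-156b (53.3% called, against 42.9% of all tested genes), with differences between -0.40 and 0.31 on the log2 scale and a median of -0.14. Hspa5 had 457, 529 (Tg-ACE), 518 and 524 (WT) CPM in Exp-156b, against 545 (Tg-ACE) and 528 (WT) CPM in Exp-156, a difference of -0.08 (SE 0.08, interval -0.27 to 0.11). Hsp90b1 had a difference of -0.14 (interval -0.33 to 0.05) and P4hb of -0.05 (interval -0.23 to 0.12). For these 3 abundant genes the interval bounds any rise in Exp-156b at 0.12 or less on the log2 scale.

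Pdia6, a disulfide isomerase that also damps Ire1, had 163, 190.3 (Tg-ACE), 178 and 181 (WT) CPM in Exp-156b, against 235 (Tg-ACE) and 235 (WT) CPM in Exp-156. It fell by 0.40 on the log2 scale (SE 0.08, adjusted p 0.00501), with all 4 libraries lower. The other 5 that were lower were Sdf2l1 (-0.36), Sec61b, a subunit of the channel through which proteins enter the ER (-0.33), the BiP co-chaperone Dnajb9 (-0.28), the isomerase Pdia4 (-0.25) and Dnajc3 (-0.20), a co-chaperone also known as P58IPK that inhibits Perk. Hyou1, an exchange factor for BiP, rose by 0.31 and the co-chaperone Dnajb11 by 0.19. Pdia6 was the 1 folding gene whose call held without each library in turn. Dnajb11 and Dnajc3 lost theirs whichever library was left out. Dnajb9 and Sec61b kept the call in 1 of these 6 fits, Pdia4 in 2, and Hyou1 and Sdf2l1 in 4. Canx (-0.18, adjusted p 0.0789), Manf, a secreted stress-induced factor (0.10), Creld2 (-0.01) and Ero1lb, an oxidase for disulfide isomerases (0.01), did not pass.

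In ERAD 2 of 7 genes were higher and 1 lower in Exp-156b, which is 42.9% called, the same share as over all tested genes. Herpud1, which helps assemble the degradation complex, had 26.3, 27.7 (Tg-ACE), 25.2 and 27.3 (WT) CPM in Exp-156b, against 38.5 (Tg-ACE) and 44.9 (WT) CPM in Exp-156. It fell by 0.65 on the log2 scale (SE 0.08, adjusted p 8.7e-04), opposite in direction to Chac1, Asns and Trib3, whose windows also match the CARE pattern. Sel1l, the scaffold of the complex, rose by 0.24 (adjusted p 0.0297), and Derl2, a channel subunit, rose by 0.21 (adjusted p 0.0277); the first lost its call without 4 of the single libraries and the second without 5. Derl2 shares 231 exon bases with Mis12 on the opposite strand. Edem1, which trims mannose from misfolded glycoproteins (-0.18), the ubiquitin ligase Syvn1 (-0.11), the channel subunit Derl1 (0.06) and Derl3 (0.73, SE 0.67) did not pass.

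**Figure D4:**
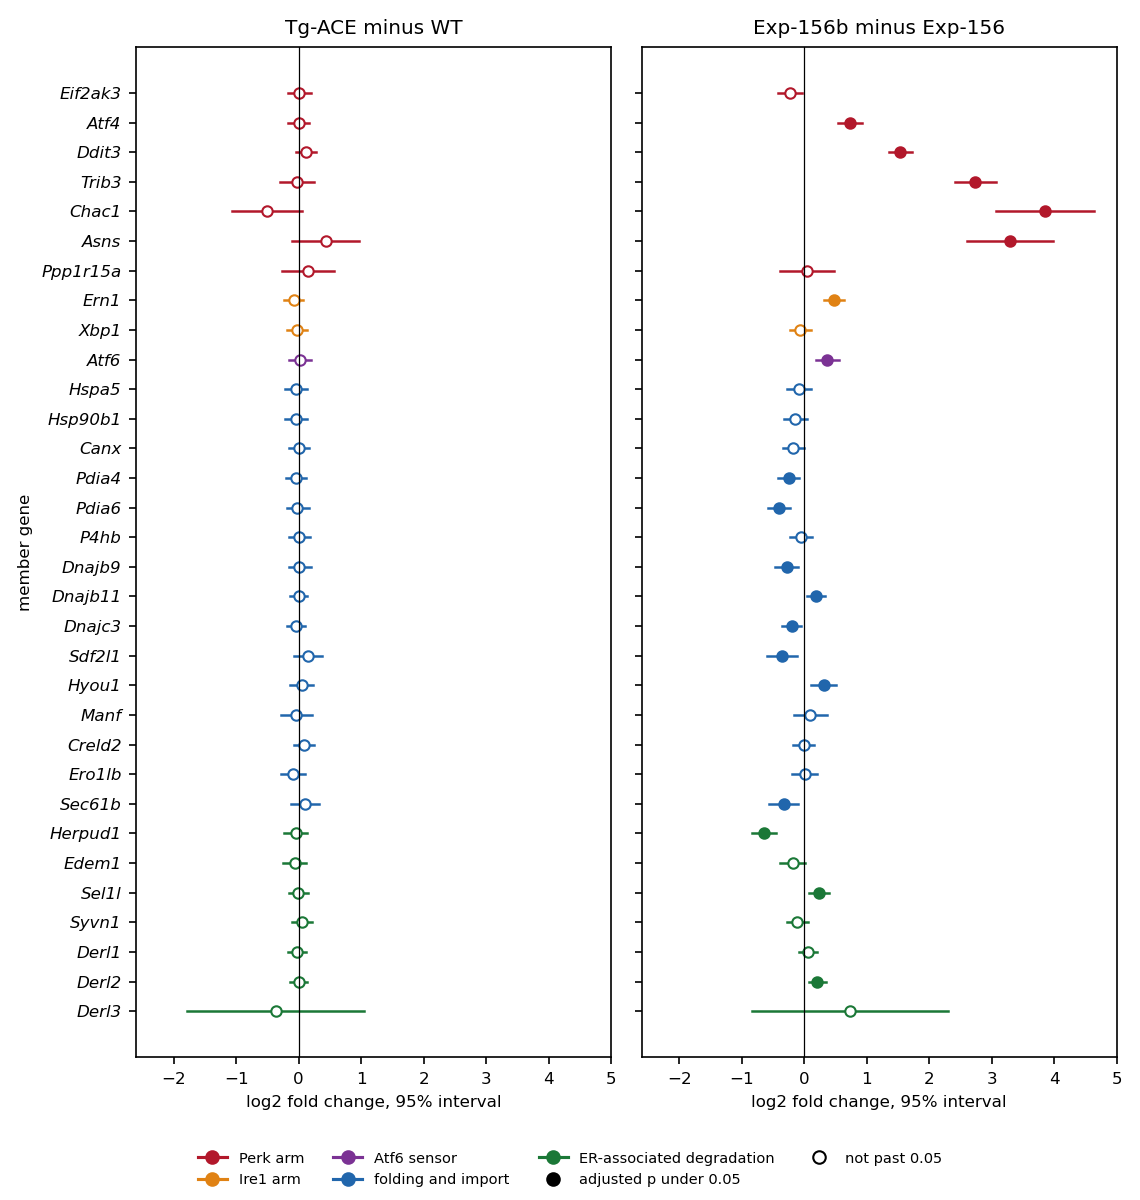
Log2 fold change with its 95% interval for each of the 32 genes (rows, coloured by role), for Tg-ACE minus WT on the left and Exp-156b minus Exp-156 on the right; filled points had an adjusted p under 0.05. No point is filled on the left, and on the right 18 are, with Chac1, Asns, Trib3, Ddit3 and Atf4 farthest to the right among them.

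A further test asked whether the Tg-ACE minus WT difference was unequal between the codes. It called 0 of the 32 genes and 0 of 12827 tested genes (0%; edgeR), with 981 tested genes (7.65%) and 1 of the 32 at an unadjusted p under 0.05. DESeq2 called 13 genes and 0 of the 32, and limma-voom 0 and 0. The 1 gene was Ppp1r15a, with a Tg-ACE minus WT difference of 0.43 within Exp-156b and -0.41 within Exp-156. The gap between these was 0.84 (SE 0.22, p 0.00912, adjusted p 0.646, edgeR), which fails the correction. With 1 library of each genotype in Exp-156, the test rests on few degrees of freedom.

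Other genes of the pathway were read from 6 lists, also written with earlier results known. Among Atf4 targets outside the 32, 29 of 38 tested genes were higher in Exp-156b and 4 lower, against 20% higher and 22.9% lower over all tested genes, with a median of 0.77 on the log2 scale. Mthfd2, a mitochondrial one-carbon enzyme, had 52.2, 55.5 (Tg-ACE), 49.5 and 55.3 (WT) CPM in Exp-156b, against 12.3 (Tg-ACE) and 9.29 (WT) CPM in Exp-156 (2.30, SE 0.11, adjusted p 1.3e-05). The amino acid transporters Slc7a5 (2.19, SE 0.14, adjusted p 3.7e-05) and Slc7a1 (1.27, SE 0.08, adjusted p 4.0e-05) moved the same way. Split by role after the values were seen, 11 of 11 tRNA synthetases, 5 of 5 amino acid transporters and 6 of 6 serine and one-carbon enzymes were higher, against the same 20%, with medians of 0.64, 1.27 and 1.56.

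The 4 that were lower, named after their values were seen, were Cebpg (-0.61), a partner of Atf4, the stress gene Ddit4 (-1.24), Nupr1 (-0.44) and the transaminase Gpt2 (-0.37). The 5 not called, named likewise, were Atf3 (-0.03), Cebpb (0.14), Eif4ebp1 (0.02), Jdp2 (-0.21) and Stc2 (1.40). Atf3, a transcription factor that is induced by many stresses, had 441, 462 (Tg-ACE), 413 and 407 (WT) CPM in Exp-156b, against 444 (Tg-ACE) and 432 (WT) CPM in Exp-156. Its libraries overlapped, unlike those of Ddit3.

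The lists of other folding, import and ERAD genes had 32.3%, 20.7% and 45.8% of their tested genes called, against 42.9% of all tested genes. Of 31 other folding genes, 4 were higher and 6 lower (median -0.02), led by Magt1, a subunit of the glycosylation complex (-0.55, adjusted p 7.5e-04), the peroxiredoxin Prdx4 (0.46, adjusted p 0.00295) and the prolyl isomerase Fkbp11 (1.11, adjusted p 0.0047). Of 29 import genes, 5 were higher and 1 lower (median 0.10), led by the signal recognition genes Srprb (0.31, adjusted p 0.0122) and Srp54a (0.27, adjusted p 0.0178) and the channel partner Sec63 (0.24, adjusted p 0.0274). Of 24 other ERAD genes, 9 were higher and 2 lower (median 0.12), against 20% higher and 22.9% lower over all tested genes. Edem2, which starts mannose trimming, had 191, 209 (Tg-ACE), 167 and 176 (WT) CPM in Exp-156b, against 119 (Tg-ACE) and 120.1 (WT) CPM in Exp-156 (0.63, adjusted p 9.1e-04). Nploc4 (0.51, adjusted p 0.00128) and Ufd1l (0.39, adjusted p 0.00352) encode cofactors of the segregase that pulls proteins out of the membrane.

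Among 13 eIF2 kinases and regulators, 2 were higher and 3 lower (38.5% called, median 0.16), led by Nck1, an adaptor (-0.68, adjusted p 0.00123), Ppp1r15b, the constitutive partner of the eIF2 phosphatase (-0.29, adjusted p 0.0156), and Impact, an inhibitor of the kinase Gcn2 (0.26, adjusted p 0.0166). Among 20 regulators of Ire1 and Atf6, 3 were higher and 2 lower (25% called, median 0.11). Map3k5, the kinase Ask1 that acts below Ire1, was lowest (-0.71, adjusted p 4.9e-04), and Bax (0.40, adjusted p 0.0076) and Rtcb, which joins the Xbp1 exons (0.25, adjusted p 0.0144), were higher. The plot by gene list shows the Atf4 targets spread upward, and the folding, import, degradation and regulator lists with medians near 0. Some of the latter lists still leaned upward. Above 0 lay 25 of 29 import genes, 19 of 24 other ERAD genes and 10 of 13 eIF2 kinases and regulators. For regulators of Ire1 and Atf6 it was 13 of 20, and for other folding genes 15 of 31. Among the Ire1 and Atf6 members, Ern1 (0.47) and Atf6 (0.37) stand above 0 and Xbp1 (-0.06) does not.

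**Figure D5:**
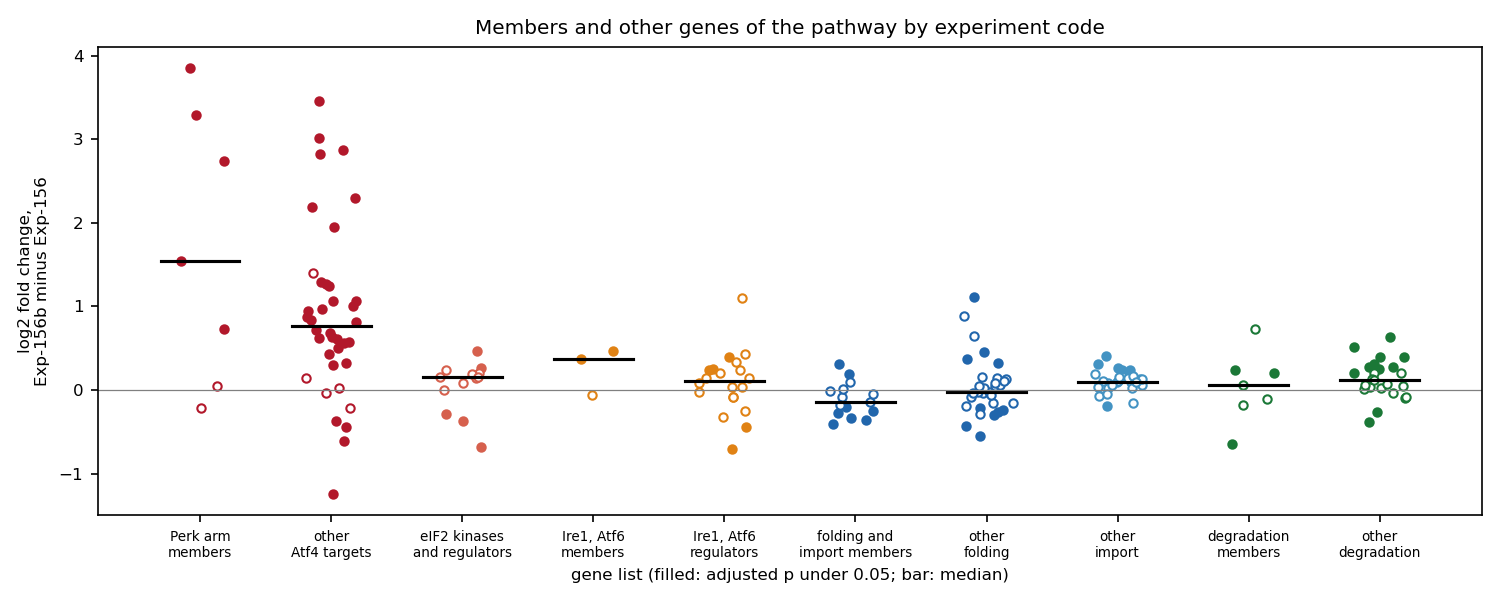
Log2 fold change, Exp-156b minus Exp-156, of the 32 genes and of the other pathway genes by list, 1 point per gene, filled where the adjusted p was under 0.05, with a bar at the list's median. The medians are 1.54 for the Perk arm and 0.77 for other Atf4 targets, and between -0.14 and 0.16 for the folding, import, degradation and eIF2 lists. The regulators of Ire1 and Atf6 have a median of 0.11. Among the Ire1 and Atf6 members, Ern1 stands at 0.47, Atf6 at 0.37 and Xbp1 at -0.06.

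Between Tg-ACE and WT, the smallest adjusted p over these 6 lists was 0.498, for Map3k5, with 23.9, 13.4 and 15.1 CPM in Tg-ACE replicates 1 to 3, against 30.5, 19 and 19 CPM in WT replicates 1 to 3. It was lower in Tg-ACE under each code (-0.39, SE 0.08, unadjusted p 0.00128, edgeR), and fails the correction. The lists held 0 to 3 genes each at an unadjusted p under 0.05, and list medians lay between -0.02 and 0.04. The 2 genes with the smallest p were Prdx4 (0.22) and Tmx3 (-0.15) for folding, Sec61a2 (-0.43) and Srp54a (0.13) for import, Rnf139 (-0.18) and Edem2 (0.14) for ERAD, Ddit4 (-0.68) and Atf5 (0.21) for Atf4 targets, Impact (-0.15) and Eif2b1 (0.17) for eIF2 regulators, and Nucb1 (0.11) after Map3k5.

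Markers of other cells moved with the experiment code as well. Over all tested genes, 20% were higher in Exp-156b and 22.9% lower. The summed level of 9 macrophage markers was 18228 to 22176 CPM in Exp-156b and 21881 (Tg-ACE) and 21991 (WT) CPM in Exp-156, and 7 of their 10 rows were lower in Exp-156b. Neutrophil markers summed to 19.2 to 21.4 CPM in Exp-156b and to 166 (Tg-ACE) and 498 (WT) CPM in Exp-156. Most of the Exp-156 sums came from Retnlg, with 129 (Tg-ACE) and 438 (WT) CPM, while S100a8 did not pass (-0.15 on the log2 scale). In all 3 of 6 tested genes were lower, and Ly6g and Camp had at or under 3 counts in every library. Eosinophil and mast cell markers summed to 21.2 to 41.7 CPM in Exp-156b and to 144 (Tg-ACE) and 311 (WT) CPM in Exp-156, with 6 of 6 lower. T and NK cell markers (6.45 to 8.73 CPM in Exp-156b, 26.7 to 31.4 in Exp-156) and dendritic cell markers (5.34 to 9.87 CPM in Exp-156b, 51.4 to 66 in Exp-156) were lower too, for 7 of 7 and 2 of 3 tested genes. These lists are small beside the macrophage markers in every library.

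Markers of B and plasma cells summed to 723 to 838 CPM in Exp-156b and to 399 and 437 CPM in Exp-156. Most came from Sdc1, which macrophages also express (642 to 724 CPM in Exp-156b, 284 and 298 CPM in Exp-156). Of the 9 tested genes 2 were higher, near the 20% over all tested genes. Mesothelial and fibroblast markers summed to 279.9 to 579 CPM in Exp-156b and to 231 and 250.5 CPM in Exp-156, with 5 of 10 higher and 1 lower. Immediate early genes, which respond within minutes to handling and stimuli, summed to 834 to 919.8 CPM in Exp-156b and to 1546 and 1846 CPM in Exp-156. Of the 9 tested, 7 were lower and 1 higher, against 22.9% lower and 20% higher over all tested genes. Cytosolic heat shock genes summed to 1946 to 2159 CPM in Exp-156b and to 1978 and 2145 CPM in Exp-156, with 4 of 11 higher and 2 lower. The part of any of these in the differences of Atf4 targets and folding genes between the codes was not tested. In bulk libraries, fewer cells of a type and less RNA per cell cannot be told apart.

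Between genotypes the same sums overlapped. Macrophage markers summed to 18228 to 21881 CPM in Tg-ACE and to 18557 to 22176 CPM in WT, and immediate early genes to 908 to 1546 CPM in Tg-ACE and to 834 to 1846 CPM in WT. Neutrophil markers summed to 19.9 to 166 CPM in Tg-ACE and to 19.2 to 498 CPM in WT, the high value in each genotype being its Exp-156 library.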

How the data were processed

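Poly-A RNA libraries were made with a stranded kit and sequenced as single 75-base reads, per the labels' protocols. The authors deposited 1 table of expected counts per gene, not normalized. STAR 2.5.0 and RSEM 1.2.25 are named in the submitters' processing notes, along with the builds mm10 and GRCh38. Fractional values made up 11% to 11.4% of each library's entries, and all were rounded; 92 spike-in rows, with 1 count in all, were left out. Whether reads were counted by strand was not stated in the sources read. Positions and exon lengths came from GENCODE vM21 on GRCm38.

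The 12827 genes kept by filterByExpr were fitted with edgeR 4.0.16 (R 4.3.3), TMM factors and the quasi-likelihood F-test, with experiment code and genotype as terms; a second fit added their interaction. P-values were adjusted by Benjamini-Hochberg over all tested genes at 0.05. CPM are on TMM-scaled libraries. SEs were the log2 difference divided by the square root of F. The code was tested on simulated data. Alternatives used other scaling (RLE), tools (DESeq2 1.42.0, limma 3.58.1 voom), filters, genotype alone, the replicate block, Exp-156b alone and each library left out.

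The members and lists were chosen with earlier results of these data known. All 32 genes are named; from each other list the 3 genes with the smallest p between codes and the 2 between genotypes are named. Same-numbered libraries deviated together (correlations of 0.856, 0.483 and 0.637 for replicates 1 to 3), and so did differently numbered ones within Exp-156b (0.615 and 0.539). With the experiment code removed, same-numbered libraries gave -0.178 and -0.101 and differently numbered ones -0.0939 and -0.143, so beyond the shared code the numbers showed no pairing; the replicate block was run as an alternative.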

Additional observations from a re-analysis of the deposited data

Results flagged for a closer look

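Among the 4 Exp-156b libraries, Tg-ACE replicate 2 stood apart from the others for 3 of the 32 genes, each time as the lowest, by Dixon's test. Hspa5 had 457 CPM there, against 518 to 529 CPM in the other 3, a gap of 0.855 of the range. Canx had 307 CPM there, against 328 to 331 CPM in the others (0.881 of the range), and Pdia4 had 67.3 CPM, against 74.7 to 75 CPM (0.959 of the range). Chance flags about 1 in 20 groups, and 32 genes were examined. The cause was not tested.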

How the results depend on the processing

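None of the 32 genes passed between Tg-ACE and WT under any of the 14 alternatives, including the replicate block (0 of the 32 genes, 2 genes in all), which changed no call, and no called value reversed; 76 values uncalled in both fits changed sign. Genes called between genotypes numbered 2 in the main model, 0 with genotype as the only term, 37 with DESeq2, 9 with no filter and 2 to 3 without single libraries. Genes called for the interaction numbered 13 with DESeq2 and 0 to 14 without single libraries (14 without WT replicate 3); it could not be fitted without replicate 1 of either genotype. Between codes, 3409 to 5260 genes were called without single libraries, against 5502 with all, and 8 to 15 of the 32, against 18 (3409 and 10 without Tg-ACE replicate 1, 3448 and 8 without WT replicate 1). Ace passed with DESeq2 (1.93, adjusted p 3.85e-05), with no filter (1.95, adjusted p 0.00414) and without WT replicate 3 (2.24); its range without single libraries was 1.59 to 2.24, and with the replicate block it was 1.96. Of the members' differences between codes, 155 were the same and 3 lost the call under other settings, and 151 were the same, 40 lost and 1 gained the call without single libraries. Depth limits Chac1 in Exp-156 (4 and 5 counts) and Derl3 everywhere. The contrast between codes rests on 2 Exp-156 libraries.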
